A study of Mus musculus with 6 samples.

Results

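Per1, Cry2, Nr1d1 and Dbp, genes of the circadian clock, were followed in TM4 cells in which Gata4 was targeted by RNA interference. These 4 genes, measured by 6 probes, were picked by name from the 2003 genes named in the authors' deposited table of called probes. The 3 Gata4 siRNA samples were TM4 cells given a pool of 4 small interfering RNAs against Gata4, a transcription factor that binds GATA motifs in gonads and heart. The 3 NT siRNA samples were TM4 cells given 1 non-targeting siRNA, and both groups received siRNA at 0.1 µM by lipid transfection. TM4 is a single immortalized mouse line of Sertoli cell origin, the supporting cells of the seminiferous tubule, and nothing in the labels says that the samples of a group were separate cultures. Passage is given as 12 in one label and as 13 in another. A time of harvest, or a step that would set the clocks of the cells in phase, is not given in the sources used here.

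The clock of a mammalian cell is a transcriptional loop. CLOCK pairs with BMAL1 on E-boxes and drives the Per and Cry genes, whose proteins return to the nucleus and restrain that pair. The same pair drives Nr1d1, which encodes REV-ERBα, a nuclear receptor that represses Bmal1 through ROR elements, and Dbp, whose protein activates genes through D-boxes. Cultured cells carry such loops, which drift apart from cell to cell unless serum or a glucocorticoid sets them together, and rhythms of clock transcripts in the whole testis are known to be weak.

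The sequences that define the groups are shown as the labels give them, 5′ to 3′ and in lower case, since their strand is not stated.
Gata4 siRNA 1: agagaauagcuucgaacca
Gata4 siRNA 2: ggauauggguguuccgggu
Gata4 siRNA 3: cugaauaaaucuaagacgc
Gata4 siRNA 4: ggacauaaucaccgcguaa
NT siRNA: ugguuuacaugucgacuaa

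Each sample had its own array, with deposited intensities over 45269 probes that look brought to a common distribution. The noise floor, the 95th percentile of the sizes of values below 0, was 17.1 intensity units, and 17740 probes exceeded it on at least 3 of 6 arrays. Control array 3 stood somewhat apart, with the lowest weight in limma's array weighting, 0.379 against 0.786 to 1.97 for the other arrays. Gata4 is not among the genes named in the authors' deposited table of called probes, and probes without a name could not be searched for it. The level of Gata4 was therefore not analysed here, and the knockdown and the labels are not checked by the targeted gene. Of 18 Sertoli markers only Sox9 and Inhbb were named, and of the Leydig, germ cell and endothelial lists 0 genes, so the cell type could be checked by these genes alone. Both were above the noise floor on every array. Sox9, a defining Sertoli transcription factor, averaged 1453 ± 84.8 in Gata4 siRNA cells and 960.8 ± 36.1 in NT siRNA cells (SD, n = 3 each) and passed the threshold of the fit below as higher, whereas Inhbb, an inhibin and activin subunit, averaged 1378 ± 16.6 in Gata4 siRNA cells and 2008 ± 207.7 in NT siRNA cells and passed as lower. Of 8 smooth muscle markers 4 were named. Their summed intensity, most of it from Acta2, was 18912.1 to 21318.5 on Gata4 siRNA arrays and 12756.7 to 14165.4 on NT siRNA arrays. The single named macrophage marker, Cd14, lay at 716.0 to 781.9 on Gata4 siRNA arrays and at 520.2 to 619.0 on NT siRNA arrays and did not pass. The part of these shifts in the values below was not tested. The number of arrays limits the precision of every value.

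The 3 transcripts Per1, Cry2 and Dbp were lower in Gata4 siRNA cells, to between 0.449 and 0.565 of the level in NT siRNA cells, and Nr1d1 was 2.04-fold higher, as ratios of mean intensity. A gene has a name here only if the authors called it changed on these very arrays, so these values describe the 4 genes and carry no test. In bulk RNA, fewer cells that express a gene and less RNA per cell cannot be told apart. On the log2 scale used below, which shrinks the differences of dim probes, the values of the 4 genes had a median difference of -0.76, against 0.01 over all probes tested and 0.27 over the 1990 named genes tested. The median hides Nr1d1, which was at 0.91, and the named genes differed in both directions. No shift of the 4 genes as a set is read from these medians.

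Among the repressors, Per1, whose protein forms the repressive complex with cryptochromes and whose gene also responds to glucocorticoid and cAMP signals, had intensities of 212.6, 228.7 and 267.0 on the Gata4 siRNA arrays, against 368.7, 375.9 and 515.6 on the NT siRNA arrays. The highest Gata4 siRNA array stayed below the lowest NT siRNA array, and control array 3 was well above its fellows. The means were 236.1 ± 27.9 in Gata4 siRNA cells and 420.1 ± 82.8 in NT siRNA cells (SD, n = 3 each), a log2 difference of -0.78 ± 0.16 (SE). Without control array 3 the difference was -0.63. The dimmer Per1 probe gave 80.3, 106.2 and 105.6 in Gata4 siRNA cells and 163.3, 133.4 and 194.2 in NT siRNA cells, a log2 difference of -0.66 ± 0.17. Both Per1 probes thus kept the groups apart and had control array 3 on top, but they ordered control arrays 1 and 2 differently.

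Cry2, a cryptochrome that blocks the CLOCK and BMAL1 pair, was the dimmest of the 4 genes on the probes that stand for them. Its intensities were 39.8, 31.0 and 41.4 on the Gata4 siRNA arrays and 103.3, 79.1 and 67.3 on the NT siRNA arrays. All of these lay above the noise floor, and the groups did not overlap. Cry2 averaged 37.4 ± 5.6 in Gata4 siRNA cells and 83.2 ± 18.4 in NT siRNA cells (SD, n = 3 each), with a log2 difference of -0.89 ± 0.16 (SE). The difference moved with the treatment of low values, to -0.60 with an offset of 50 in place of 16 and to -1.15 as the plain ratio of mean intensities.

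Nr1d1 was the gene of the 4 that was higher. Its brighter probe bears the symbol of a predicted locus in the authors' deposited table and took its name from the Entrez number beside it. That probe read 155.6, 174.4 and 165.8 on the Gata4 siRNA arrays, against 90.4, 83.7 and 69.4 on the NT siRNA arrays. The spread within each group was small beside the gap between them, with means of 165.3 ± 9.4 in Gata4 siRNA cells and 81.2 ± 10.7 in NT siRNA cells (SD, n = 3 each) and a log2 difference of 0.91 ± 0.13 (SE). The dimmer probe, deposited under Nr1d1 itself, read 44.2, 34.5 and 77.2 in Gata4 siRNA cells and 3.1, 20.2 and 9.0 in NT siRNA cells. Only 1 of the 3 NT siRNA arrays exceeded the noise floor there, so the dimmer probe gives the direction and no firm fold.

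Dbp, the D-box activator and a strongly rhythmic target of CLOCK in many tissues, was lower in Gata4 siRNA cells, with control arrays far apart. It read 196.9, 212.7 and 218.0 on the Gata4 siRNA arrays and 480.9, 366.1 and 263.0 on the NT siRNA arrays. The Gata4 siRNA arrays were close together, whereas the highest control array was 1.83-fold above the lowest. This difference in spread was not tested. A larger SD in NT siRNA cells was also seen for Per1 and Cry2, while the SDs of Nr1d1 were close. Dbp averaged 209.2 ± 11.0 in Gata4 siRNA cells and 370.0 ± 109.0 in NT siRNA cells (SD, n = 3 each), a log2 difference of -0.74 ± 0.20 (SE). The size of the Dbp difference rested on single control arrays, with -0.54 without control array 1 and -0.95 without control array 3.

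**Figure D1:**
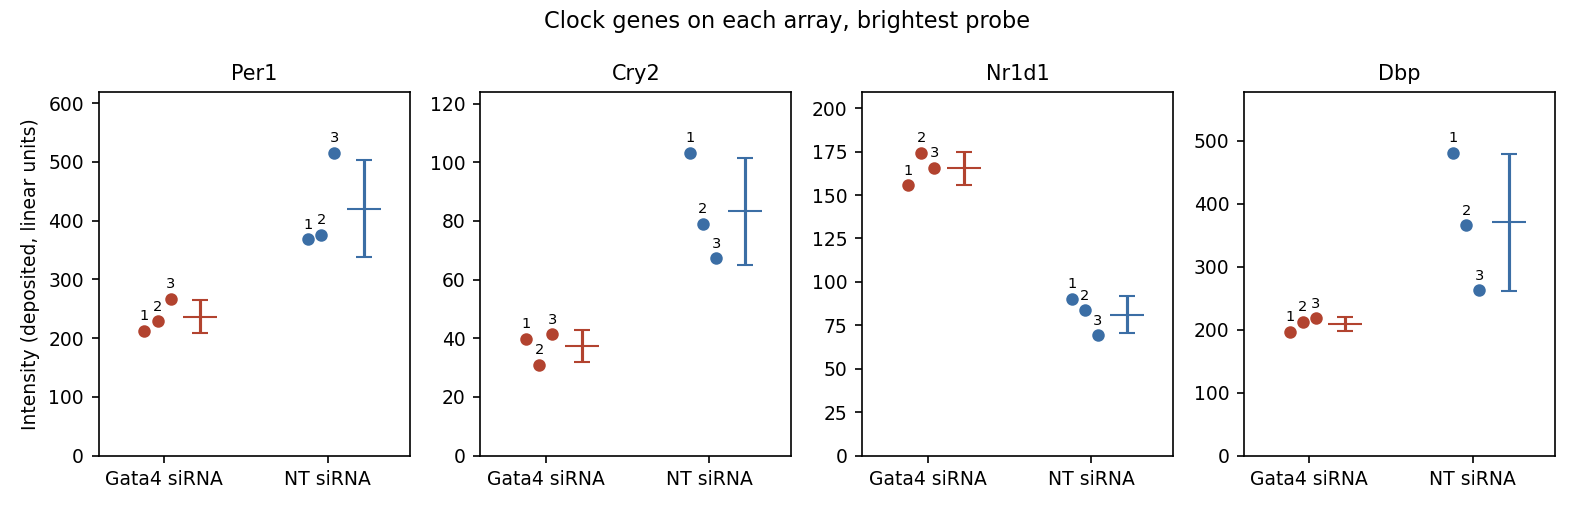
Intensity (linear, deposited) of the brightest probe of Per1, Cry2, Nr1d1 and Dbp on each array, with Gata4 siRNA left and NT siRNA right, points numbered by replicate, and bars giving the mean ± SD of 3 arrays. Per1, Cry2 and Dbp sit lower and Nr1d1 higher in Gata4 siRNA cells, and Dbp spreads from 263.0 to 480.9 in NT siRNA cells.

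**Figure D2:**
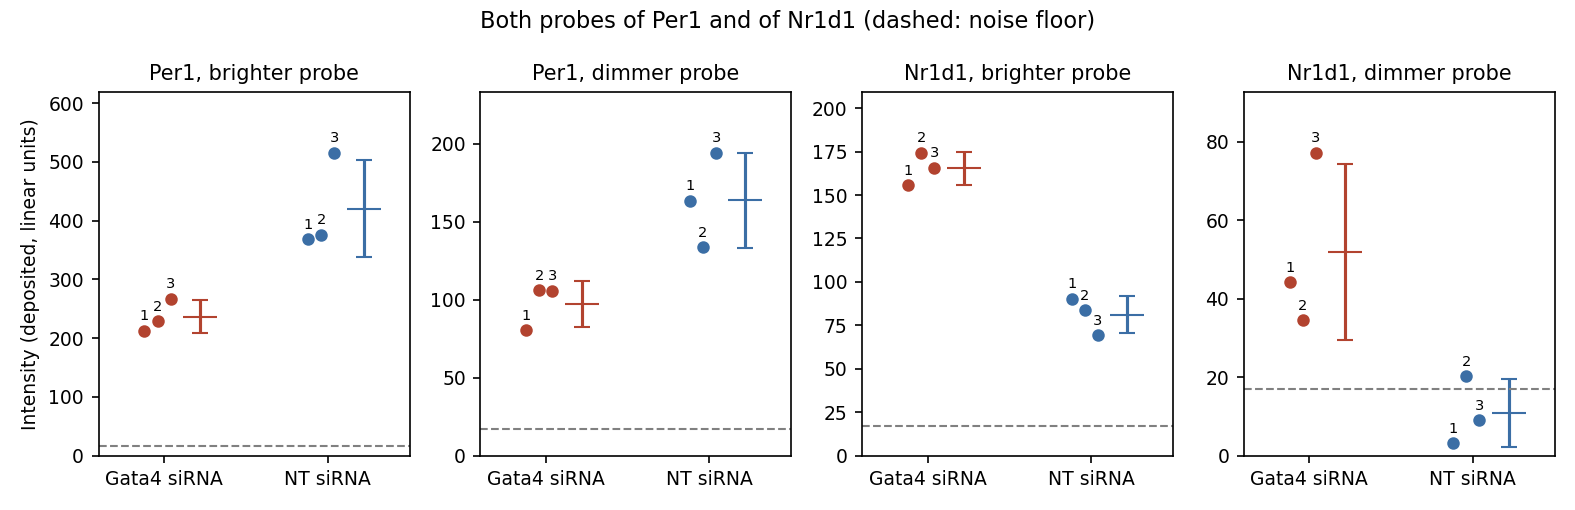
Intensity (linear, deposited) of the brighter and the dimmer probe of Per1 and of Nr1d1, with Gata4 siRNA left and NT siRNA right, points numbered by replicate, and bars giving the mean ± SD of 3 arrays. The dashed line is the noise floor of 17.1, which 1 of the 3 NT siRNA values of the dimmer Nr1d1 probe exceeds.

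The groups did not overlap for any of the 4 genes, but this held for 33.2% of all probes tested and for all 1990 named genes tested. Nothing particular to the 4 genes is read from it. In a fit across all probes with limma, 3 of the 4 genes passed an adjusted p under 0.05, against 8.78% of all probes tested and 55.4% of the named genes. Nr1d1 passed as higher, as did 4.07% of all probes, and Per1 and Cry2 as lower, as did 4.71%. Dbp did not pass. Single arrays and processing choices moved these calls: neither Per1 nor Cry2 passed when array 1 or array 2 of the Gata4 siRNA group or control array 1 was left out, whereas Dbp passed without control array 3. Per1 also did not pass with values floored at 1 or with no filter on dim probes, and Dbp passed with an offset of 50, with probes required on all 6 arrays, with eBayes with trend and with array weights. Nr1d1 passed in each of the 14 refits, Cry2 in 11, Per1 in 9 and Dbp in 5. Differences at least as large as that of Nr1d1 were found for 2.01% of the probes tested, and at least as large as that of Dbp for 4.45%.

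**Figure D3:**
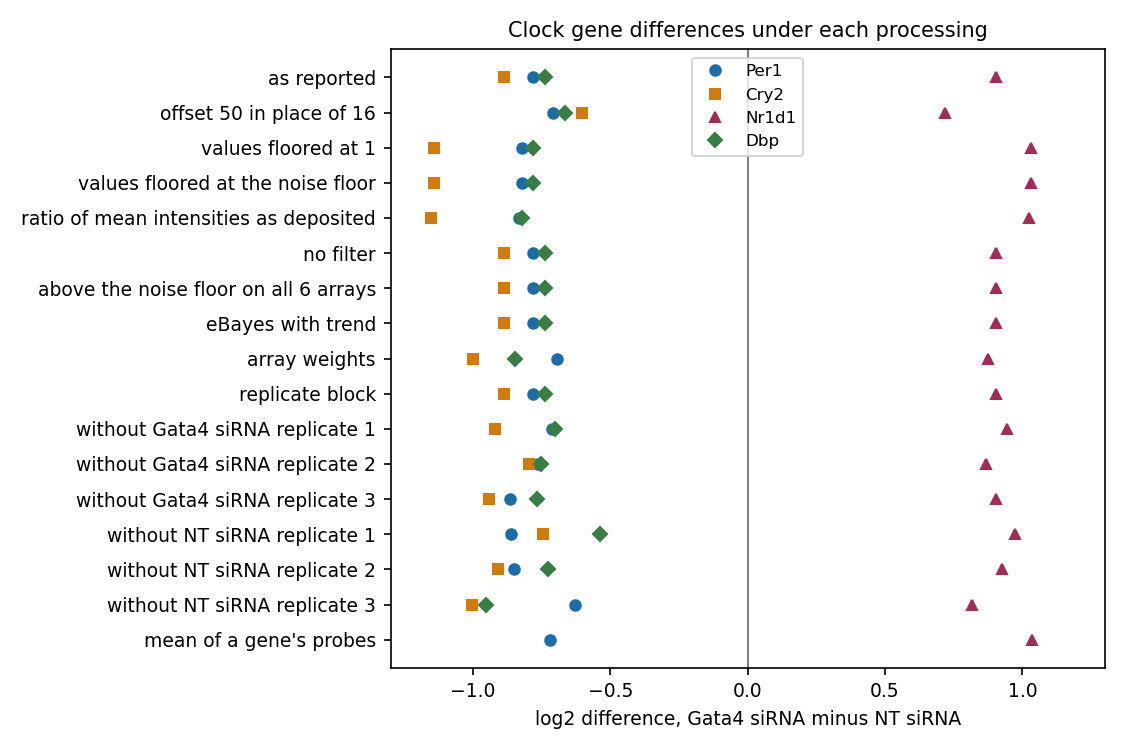
Log2 difference (Gata4 siRNA minus NT siRNA) of Per1, Cry2, Nr1d1 and Dbp, 1 line per processing setting. Nr1d1 stays to the right of 0 and the other genes to the left in each setting, with Cry2 between -1.15 and -0.60 and Dbp between -0.95 and -0.54. The side of 0 was fixed in advance, since the arrays of the groups did not overlap.

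The start sites of the 4 genes were read for the elements through which clock proteins act. Sequences are those of RefSeq in build GRCm38.p6, the 250 bases before a start site on the strand of the gene, and all 4 genes were matched by symbol. Elements searched on both strands were the E-box CACGTG, the related E′-box CACGTT, the D-box as TTATGTAA or TTATGCAA, the ROR element core AGGTCA, the cAMP response element TGACGTCA and its short form TGACG, and the GATA motif, which is GATA with A or T before it and A or G after it. Matches stand in capitals in the windows below, which are shown because these genes belong to the same loop yet differed in direction. The window of the first Per1 start read lies at chr11:69098699-69098948 (plus strand) and that of Cry2 at chr2:92434070-92434319 (minus strand). Those of Nr1d1 and Dbp lie at chr11:98775378-98775627 (minus strand) and at chr7:45704997-45705246 (plus strand). The Per1 gene spans chr11:69095108-69109965, so the Per1 window lies inside the gene.
Per1: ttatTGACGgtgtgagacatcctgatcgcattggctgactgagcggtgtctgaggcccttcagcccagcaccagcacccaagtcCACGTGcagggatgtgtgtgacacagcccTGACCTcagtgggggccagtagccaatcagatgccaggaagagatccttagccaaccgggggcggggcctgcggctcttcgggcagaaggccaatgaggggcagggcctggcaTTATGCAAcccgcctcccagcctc
Cry2: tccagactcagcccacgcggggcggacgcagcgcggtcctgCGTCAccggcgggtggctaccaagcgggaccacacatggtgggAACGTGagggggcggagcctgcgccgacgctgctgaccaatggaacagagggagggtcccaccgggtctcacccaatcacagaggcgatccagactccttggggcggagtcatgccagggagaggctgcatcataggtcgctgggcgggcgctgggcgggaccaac
Nr1d1: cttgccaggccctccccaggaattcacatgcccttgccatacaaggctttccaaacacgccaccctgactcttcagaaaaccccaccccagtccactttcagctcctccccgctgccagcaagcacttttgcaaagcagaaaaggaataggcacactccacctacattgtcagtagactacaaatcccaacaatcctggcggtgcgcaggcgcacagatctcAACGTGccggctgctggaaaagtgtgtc
Dbp: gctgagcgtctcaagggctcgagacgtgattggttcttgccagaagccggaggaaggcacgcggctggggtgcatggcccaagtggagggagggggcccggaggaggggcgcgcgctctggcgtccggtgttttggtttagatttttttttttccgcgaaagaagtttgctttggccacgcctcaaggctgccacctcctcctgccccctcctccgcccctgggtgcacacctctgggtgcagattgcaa

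The Per1 window holds an E-box whose first base lies 166 bases before the start, a D-box TTATGCAA 24 bases before it, an AGGTCA on the opposite strand and a short cAMP element. A second Per1 start, with its window at chr11:69099902-69100151, holds only a short cAMP element, 132 bases before the start. The Cry2 and Nr1d1 windows each hold an E′-box on the opposite strand, 166 and 28 bases before the start, and Cry2 also a short cAMP element. None of the elements searched occurs in the Dbp window. Over all 32851 windows of this length in the table, 6.02% held the E-box, 3.85% the E′-box, 1.5% a D-box, 14% the ROR core, 17.8% the short cAMP element, 1.55% the full cAMP element and 26.5% a GATA motif. A GATA motif occurred in 0 of the 5 windows of the 4 genes, too few windows to set against 26.5%. A match is a description of these letters and not of binding, and the short cAMP element also lies within the full one. E-box or E′-box letters thus stand in the first Per1 window and in the windows of Cry2 and Nr1d1. Any part of these letters in the directions of the transcripts was not tested.

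Other genes of the clock came from 6 lists of 56 genes in all, chosen with earlier results of these data known. Of these 14 were named, 10 of them besides the 4 genes. Of the 10, 2 passed the threshold as higher, 4 as lower and 4 did not pass, with a median log2 difference of -0.15. Each had been called by the authors, and 6 of 10 passing is near the 55.4% of all named genes, against 8.78% of all probes. Clock itself, the partner of BMAL1, had intensities of 2268.1, 2168.5 and 2005.2 in Gata4 siRNA cells and 1313.6, 1393.9 and 1526.4 in NT siRNA cells, a log2 difference of 0.60 ± 0.12 (SE). Clock was thus on the side of Nr1d1, and its lowest Gata4 siRNA array was above its highest control array. Bmal1, under its symbol Arntl, was not named, nor were Per2, Per3, Cry1, Nr1d2 and the Ror genes.

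The remaining named repressors were on the side of Per1 and Cry2. Bhlhe40, a transcriptional repressor that competes for E-boxes, had intensities of 3249.3, 2636.5 and 2953.8 in Gata4 siRNA cells and 5058.1, 5042.1 and 5474.8 in NT siRNA cells. Ciart, which interacts with the BMAL1 and CLOCK pair and represses it, had 587.5, 487.8 and 732.3 in Gata4 siRNA cells and 983.0, 982.4 and 762.1 in NT siRNA cells. The Ciart groups were close to meeting, and its log2 difference of -0.59 ± 0.18 did not pass. Together with Per1 and Cry2, all 4 named genes of the 8 repressors had negative differences and 3 of them passed as lower, where 587 of the 1990 named genes did. With 4 named genes, nothing particular to the repressors is read from this count.

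Nfil3 encodes a repressor that acts through the D-boxes that DBP activates. It had intensities of 1487.0, 1317.9 and 1467.6 in Gata4 siRNA cells and 2520.5, 2188.9 and 2140.8 in NT siRNA cells, a log2 difference of -0.67 ± 0.12 (SE). The Nfil3 probe bears the symbol of a predicted locus and was named by its Entrez number. Of the D-box factors named, Nfil3 thus passed as lower, and Dbp, its counterpart, had a negative difference that did not pass.

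Of 19 genes that set the life of clock proteins, 4 were named, and they differed in both directions. Siah2, a ubiquitin ligase known to degrade REV-ERBα, averaged 388.3 ± 0.907 in Gata4 siRNA cells and 597.5 ± 69.0 in NT siRNA cells (SD, n = 3 each). Csnk2a1, a catalytic subunit of the kinase CK2, averaged 54.4 ± 4.7 in Gata4 siRNA cells and 100.0 ± 25.0 in NT siRNA cells. Both passed as lower. The casein kinase Csnk1e, which marks PER proteins for destruction, was at 0.30 ± 0.12 and the phosphatase Ppp5c, known to act on that kinase, at 0.57 ± 0.17 (log2 difference ± SE), and neither passed. Of 16 cofactors, Ppargc1a, a coactivator that works with ROR receptors on Bmal1, passed as higher at 0.98 ± 0.16, and the arginine methyltransferase Prmt5 was at 0.41 ± 0.13 and did not pass.

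**Figure D4:**
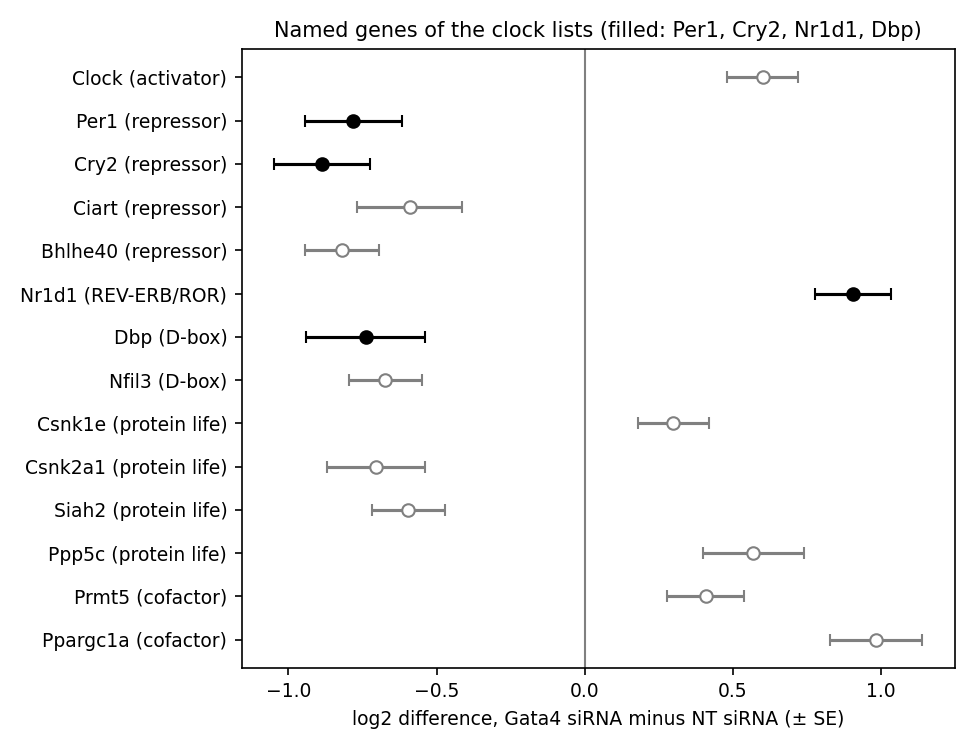
Log2 difference ± SE (Gata4 siRNA minus NT siRNA, 3 arrays each) of the 14 named genes of the clock lists, ordered by role, with Per1, Cry2, Nr1d1 and Dbp filled. The repressors, both D-box factors, Csnk2a1 and Siah2 lie to the left of 0. Clock, Nr1d1, Ppargc1a, Csnk1e, Ppp5c and Prmt5 lie to the right.

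Targets of the clock outside the loop went both ways. Of 19 listed, 5 were named, with a median log2 difference of -0.78, and 1 passed as higher and 2 as lower, a share near the 55.4% of named genes that passed, against 8.78% of all probes. Nampt, an E-box target and the rate-limiting enzyme of NAD salvage, had intensities of 25.8, 13.1 and 30.4 in Gata4 siRNA cells and 66.1, 58.2 and 64.6 in NT siRNA cells. The hormone gene Fgf21 had 22.1, 11.9 and 16.1 in Gata4 siRNA cells and 119.0, 61.4 and 48.2 in NT siRNA cells. Both were dim in Gata4 siRNA cells, where Nampt exceeded the noise floor on 2 of 3 arrays and Fgf21 on 1, and both passed as lower. Pdk4, a brake on mitochondrial pyruvate use, passed as higher at 1.42 ± 0.22 (log2 difference ± SE). The cell cycle inhibitor Cdkn1a was at -0.78 ± 0.22 and the transferrin receptor Tfrc at 0.56 ± 0.16, and neither passed.

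The genes also varied among the control arrays, and there they did not pair as they did between the groups. Cry2, Nr1d1 and Dbp were each highest on control array 1 and lowest on control array 3, while Per1 was highest on control array 3 and lowest on control array 1. On its brighter probe Nr1d1 thus varied with Dbp and Cry2 among controls. Its log2 values around the control mean were 0.14, 0.04 and -0.18 on arrays 1, 2 and 3, against 0.40, 0.02 and -0.43 for Dbp. The dimmer Nr1d1 probe did not repeat this order, with 3.1, 20.2 and 9.0, of which only 20.2 exceeded the noise floor. The dimmer Per1 probe was also highest on control array 3, but lowest on control array 2. Between the groups Nr1d1 and Dbp differed in opposite directions. Over the 14 clock genes, 7 had array 1 highest and array 3 lowest and 3 had the reverse, against 19.4% and 20.6% of all probes tested. Among the 7, Ciart nearly tied, at 983.0 on array 1 and 982.4 on array 2. The 14 genes had all been called by the authors, and the shares among named genes were not computed. Nothing particular to the clock is therefore read from this order. Control array 3 had the lowest array weight, and its part in this was not tested.

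**Figure D5:**
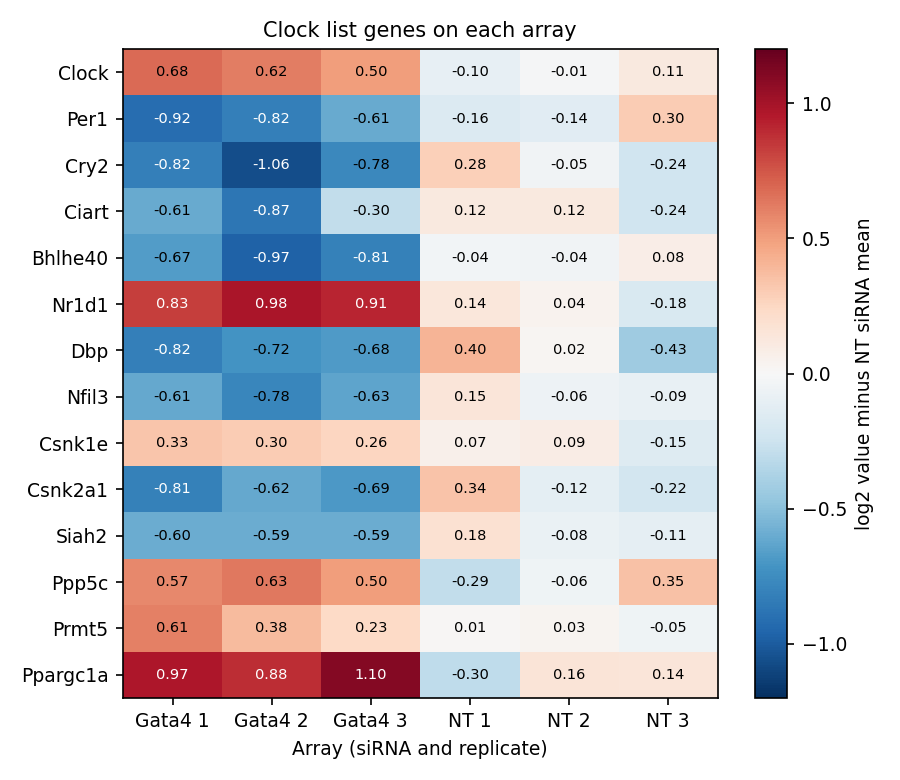
Log2 value minus the NT siRNA mean for the 14 named clock genes (rows) on each array (columns, Gata4 siRNA left, NT siRNA right). Among the NT columns Dbp runs from -0.43 to 0.40 and Per1 from -0.16 to 0.30, while the Gata4 columns of Nr1d1 lie between 0.83 and 0.98.

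Likeness over the 6 arrays was measured by Pearson's r with the mean of the 4 genes, each scaled to its own mean and SD. The named genes most like it were Mxd4 (r = 0.997), Akr7a5 (r = 0.996), Pard6a (r = 0.995), Ercc6l2 (r = 0.995) and Smim8 (r = 0.993). Since 3 of the 4 genes were lower, this mean is low in Gata4 siRNA cells, and the gap between the groups enters every such r. Mxd4, for example, had intensities of 181.3, 189.1 and 257.9 in Gata4 siRNA cells and 548.1, 405.0 and 324.6 in NT siRNA cells. Taken singly, a choice made after values were seen, the closest gene was Atg9a for Per1 (r = 0.997), 1700025G04Rik for Cry2 (r = 0.996), Wars for Nr1d1 (r = 0.9998) and 0610011I19Rik for Dbp (r = 0.990). The nearest neighbours thus differed, but each r is the highest over the named genes, and the top values lie close together. For Per1, Faap20 had an r of 0.99732 against 0.99743 for Atg9a. Nr1d1, opposite in direction, could hardly share a neighbour with the other genes. Nothing particular to the 4 genes is read from these neighbours.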

How the data were processed

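The 6 TM4 samples were read on a MouseWG-6 BeadChip of Illumina, per the labels' protocols. The sample titles set the groups, since the design text numbers the controls in a way that conflicts with 3 samples per group. The deposited intensities are linear, with 37.1% of values below 0 and nearly equal sorted columns, and so look background-subtracted and quantile-normalized. Per the submitters' processing notes GenomeStudio was used, with no settings given. Another 18 per-array columns carry names that fit no label and were left out, as were the fold change and p columns of the authors' deposited table.

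Intensities were turned to log2 with normexp (background mean 0, SD 9.40 from the values below 0) and an offset of 16. limma 3.58.1 in R 4.3.3 (lmFit, eBayes, two-sided) compared the groups over 17740 probes, with Benjamini-Hochberg adjustment and a threshold of 0.05. Standard errors are those of limma, and p-values reflect the spread of these samples alone, possibly a technical one. The fit was tested on simulated data. Names came from the authors' deposited table, 2415 probes, of which 465 were updated through Entrez numbers and 14 left out because symbol and number named different genes. A gene is represented by its brightest probe over the 6 arrays. The 4 genes, the gene lists and the motifs were chosen with earlier results of these data known. By rule, the genes named in the text are the 4 genes, every named gene of the 6 clock lists, up to 5 of each list of targets or stimuli by size of difference, and the 5 most alike. Outside this rule stand the targeted gene, the cell type markers, the genes most like a single gene of the 4, and Tsc22d3. Alternatives changed the offset, low values, filter, probe rule, array weights, variance trend and replicate block, and left out each array. Figures were drawn with matplotlib 3.10.9.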

Additional observations from a re-analysis of the deposited data

How the results depend on the processing

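Under 16 alternatives, all 62 values of the 4 genes and all 150 values of the 10 other clock genes kept the sign reported. The arrays of the groups did not overlap for any of these genes, so none of the alternatives could change a sign. Nothing is read from this count, and only the sizes and calls below could move. Cry2 and Nr1d1 moved by more than the replicate SD with dim values treated differently: Cry2 was at -0.60 with an offset of 50 in place of 16, at -1.14 with values floored at 1 or at the noise floor and at -1.15 as the ratio of mean intensities, and Nr1d1 was at 0.72 with the offset of 50, at 1.03 with either floor and at 1.04 as the mean of its probes. Leaving out each array in turn gave -0.87 to -0.63 for Per1, -1.004 to -0.74 for Cry2, 0.82 to 0.97 for Nr1d1 and -0.95 to -0.54 for Dbp. The number of the 4 genes past the threshold, 3 as reported, was 2 with values floored at 1 or no filter (Per1 lost) and 4 with the offset of 50, the filter on all 6 arrays, trend or array weights (Dbp gained). It ran from 1 to 4 when an array was left out, with 1 (Nr1d1) when array 1 or 2 of the Gata4 siRNA group or array 1 of the controls was omitted. The count of probes called, 1558 as reported, was 734 with values floored at 1, 2377 with eBayes with trend and 3079 with array weights, and 257 to 1602 when an array was left out: 372 and 257 without Gata4 siRNA arrays 1 and 2, and 487 and 723 without control arrays 1 and 2. Fewer arrays leave fewer degrees of freedom, and otherwise the cause was not tested. Same-numbered arrays did not deviate together (r = -0.06, -0.09 and -0.01 over probes), and no array correlated best with its own number. The highest r were 0.215 for Gata4 siRNA array 1 with control array 2, 0.151 for 2 with 3 and 0.147 for 3 with 1. With 3 arrays per group, these values cannot tell whether samples were handled in pairs. With the replicate number as a block 736 probes were called and 3 of the 4 genes passed. Signal over background limits the dimmer Nr1d1 probe, Nampt and Fgf21, which did not exceed the noise floor on every array.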

Other observations

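Genes known to respond to the signals that set or induce clock genes were also read. Of 14 genes known as induced by glucocorticoids 6 were named, Per1 among them, and 2 passed the threshold of the limma fit as higher, 3 as lower and 1 did not pass, where 55.4% of all named genes and 8.78% of all probes passed. Angptl4, a secreted inhibitor of lipoprotein lipase, had intensities of 3655.1, 4053.7 and 3520.4 in Gata4 siRNA cells and 1567.3, 1666.2 and 1602.6 in NT siRNA cells, a log2 difference of 1.21 ± 0.12 (SE), and was on the side of Pdk4. Ddit4, a stress-induced inhibitor of mTOR, was at -0.83 ± 0.15 and passed as lower with Per1, as did Tsc22d3 at -0.55 ± 0.14, which falls outside the rule for named genes and was chosen after its values were seen. The metallothionein Mt1 was at -0.65 ± 0.17 and did not pass. Of 20 immediate early genes of serum and cAMP 3 were named, and besides Per1 these were the nuclear receptor Nr4a2 at 0.54 ± 0.15 and the zinc finger factor Egr1 at 0.37 ± 0.12, which did not pass. All of these genes had been called by the authors on the same arrays, so their directions are a description. Members of either list went both ways, and Per1 was on the opposite side from Nr4a2 and Egr1.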
